A study of Mus musculus with 8 samples.

Results

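The genes described here were 10 glycosyltransferases that build and cap mucin-type O-glycans, namely Galnt3, Galnt12, C1galt1, Gcnt3, B3gnt3, B3gnt7, St3gal4, St6galnac1, B4galnt2 and Fut2. They were taken by their symbols from the deposited tables of gene counts, with earlier results of these data known. All 10 were listed in both tables, which hold 28349 genes for the colon, 38649 for the ileum and 40178 between them. RNAseq had been run on intestinal epithelial cells (IECs), released from the gut wall by EDTA fractionation, of 8-week-old littermate mice. WT mice were DDX5(+/+), Vil1Cre(+) and DDX5-deficient mice, here KO, were DDX5(fl/fl), Vil1Cre(+), so that both genotypes carried the Cre transgene, which the Villin promoter drives in the epithelium along the whole gut. The ileum and the colon of 2 mice per genotype were sequenced, giving 8 libraries from 4 mice, and the same mice contributed both tissues. The comparisons asked how these transcripts differ without the RNA helicase DDX5 in each tissue, and how they differ between ileum and colon.

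Mucin-type O-glycosylation starts in the Golgi when polypeptide GalNAc transferases attach N-acetylgalactosamine to serine or threonine. Core enzymes then add galactose or a branching N-acetylglucosamine, other enzymes lengthen the chain, and sialyltransferases, fucosyltransferases and related enzymes cap its ends. In the gut these glycans cover secreted goblet cell mucins and the membrane mucins of enterocytes, and their terminal sugars include sialic acid, fucose and blood group-type epitopes that microbes bind or use as food.

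Levels are given as CPM, the count relative to the TMM-scaled size of the library, for comparing 1 gene across libraries, and as CPM per kilobase of annotated exon where genes are compared with each other. The libraries held 11571061 to 22984283 counts on genes, of which the 10 transferases took 27831 to 72384. Ddx5 itself stood at 771 and 706 CPM in the WT colon and 367 and 355 in the KO colon, and at 701 and 700 in the WT ileum and 340 and 326 in the KO ileum, so that each KO library was below each WT library of its tissue. The fall of Ddx5 was 1.04 ± 0.09 on the log2 scale in the colon (estimate ± SE, edgeR adjusted p = 0.0866) and 1.07 ± 0.18 in the ileum (edgeR adjusted p = 0.027). Pan-epithelial markers (Epcam, Vil1, Cdh1, Krt8, Krt18 and Krt20) summed to 8371 to 15300 CPM per library against 2.01 to 11.7 CPM for 6 stromal and muscle markers. KO ileum replicate 2 stood apart, with 19.5% of its counts on Gm10800, Gm10801 and Gm21738, which are 3 repeat-like genes, where the other libraries had 0.001% to 4.04%.

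Those of the transferases that passed a test did so between the tissues and not between the genotypes. In WT, St3gal4, a sialyltransferase that adds sialic acid to terminal galactose, was 4.59-fold higher in the ileum, whereas B3gnt7, an N-acetylglucosaminyltransferase of chain extension, was 4.36-fold lower. Galnt12, a GalNAc transferase, and C1galt1, the core galactosyltransferase, were also lower in the ileum, by 1.77-fold and 1.34-fold. These 4 of the 9 transferases that passed the filter on low counts had an adjusted p under 0.05, where 34.2% of all 16178 genes tested did (17.4% higher and 16.8% lower in the ileum). The same 4 passed in KO, in the same directions, where 35.3% of all genes did (18% higher and 17.3% lower). Between genotypes none of the 9 reached an adjusted p under 0.05 in either tissue with edgeR, where 0% of the 15362 genes tested in the colon and 0.697% of the 14068 tested in the ileum did so. With DESeq2 none of the 9 was called either, while it made 117 colonic and 39 ileal calls over all genes. At an unadjusted p under 0.05 there was 1 of 9 in each tissue, where 12% of all colonic and 12.3% of all ileal genes had such a p. The study itself used a criterion of a log2 fold change of at least 0.5 either way with an unadjusted p under 0.05. None of the 9 met it in the colon, where 6.71% of all genes did, and 1 of 9 in the ileum, where 7.35% did.

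**Figure D1:**
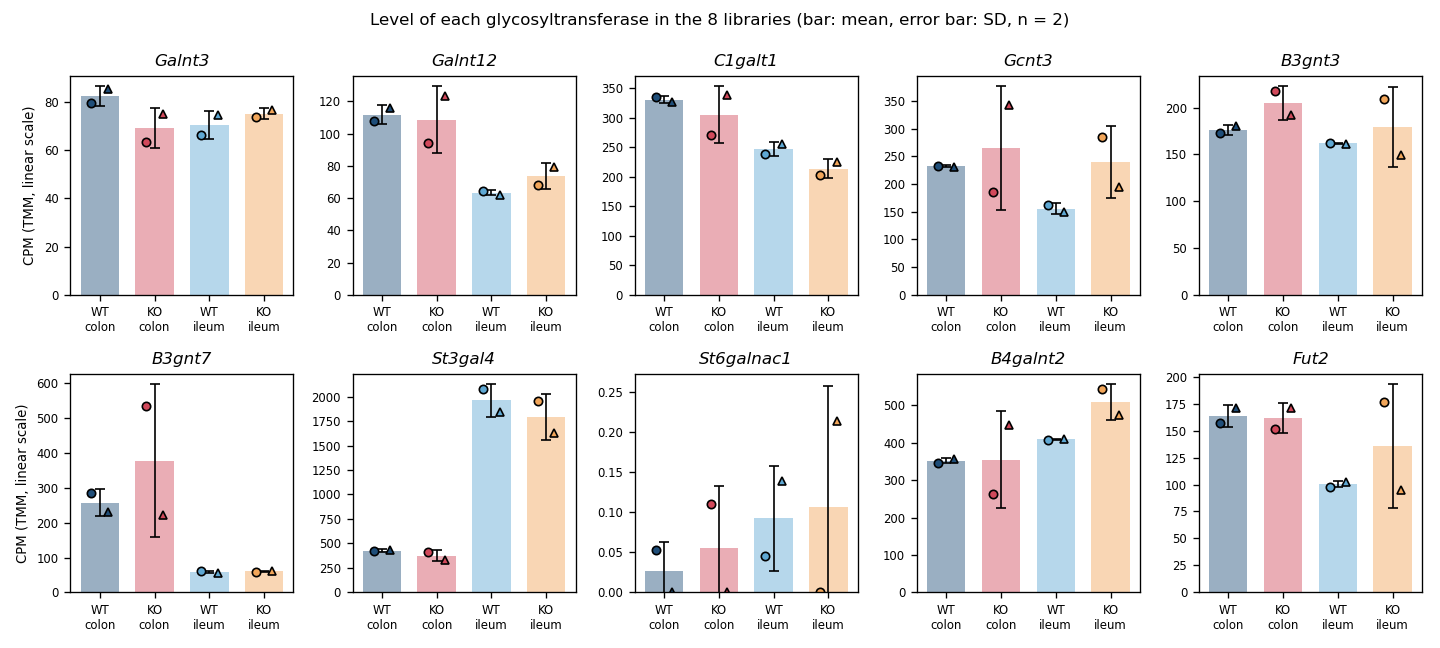
CPM (TMM-scaled, linear scale from 0, a separate axis for each gene) of the 10 transferases in the 4 groups; circles are replicate 1, triangles replicate 2, bars the mean and error bars the SD of the 2 libraries, which runs below 0 and is not drawn there for St6galnac1. St3gal4 is high in all 4 ileum libraries and B3gnt7 in all 4 colon libraries, while KO replicates lie further apart than WT replicates for several genes.

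The bases before the start sites of St3gal4 and B3gnt7 are shown because these genes had the widest contrast between tissues, and those of B3gnt3 because it shares B3gnt7's family but did not pass the tissue test. Sequences are the 250 bases upstream of the start site in the RefSeq table for GRCm38.p6, read 5′ to 3′ on the gene's strand, and 6 of the 10 transferases have an entry there. The windows of St3gal4 and B3gnt7 lie inside the gene spans given below, and that of B3gnt3 lies outside its span. In the St3gal4 window 9 bases fall in exons of its coding transcripts. Both strands were searched for 5 motifs. The HNF4 motif was spelled CAAAGTCCA. The motif of GATA factors was spelled AGATAA, the core of the CDX motif was spelled TTTAT, and the E-box was spelled CACGTG. Matches of these 4 are in capitals. The GC-box was spelled GGGCGG, and its matches are left in lower case. No searched motif overlaps another in the windows shown.

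St3gal4, chr9:35116865-35117114, minus strand: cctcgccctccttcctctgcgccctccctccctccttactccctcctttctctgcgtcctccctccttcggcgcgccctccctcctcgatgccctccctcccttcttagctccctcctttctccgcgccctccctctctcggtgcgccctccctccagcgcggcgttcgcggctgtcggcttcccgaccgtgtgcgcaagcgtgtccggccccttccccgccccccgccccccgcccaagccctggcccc

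B3gnt7, chr1:86302971-86303220, plus strand: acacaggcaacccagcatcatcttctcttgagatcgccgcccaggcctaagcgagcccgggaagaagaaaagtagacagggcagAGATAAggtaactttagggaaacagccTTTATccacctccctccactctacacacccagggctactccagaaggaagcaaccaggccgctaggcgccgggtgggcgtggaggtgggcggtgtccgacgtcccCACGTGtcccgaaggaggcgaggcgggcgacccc

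B3gnt3, chr8:71701801-71702050, minus strand: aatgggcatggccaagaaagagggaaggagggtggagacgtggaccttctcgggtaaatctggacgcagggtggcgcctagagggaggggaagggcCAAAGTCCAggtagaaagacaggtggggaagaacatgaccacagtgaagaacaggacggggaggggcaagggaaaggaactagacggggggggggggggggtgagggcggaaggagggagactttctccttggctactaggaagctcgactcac

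The St3gal4 window held 72.8% G and C with 25 CpG dinucleotides, above the medians of 52.4% and 6 over the 32851 promoters in the table, and its matches were 3 GC-boxes. The B3gnt7 window had 2 GC-boxes and the B3gnt3 window 1, and of all promoters 32.7% had at least 1. The B3gnt7 window was 61.6% G and C with 16 CpG and also held 1 GATA motif, 1 CDX core and 1 E-box, which 9.99%, 37.3% and 6.02% of all promoters had. The B3gnt3 window was 60.0% G and C with 8 CpG and also held 1 HNF4 motif, which 0.384% of all promoters had. A match describes the letters alone, and no binding was measured here.

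St3gal4 (GRCm38 chromosome 9, 35046576 to 35119268, minus strand) was the most abundant transferase of the ileum. It stood at 2079 and 1842 CPM in the WT ileum, 1955 and 1624 in the KO ileum, 419 and 436 in the WT colon and 414 and 336 in the KO colon. Every ileum library was thus above every colon library, and within the ileum the genotypes overlapped. The tissue difference on the log2 scale was 2.20 ± 0.19 in WT (edgeR adjusted p = 6.39e-05) and 2.25 ± 0.19 in KO (edgeR adjusted p = 5.49e-05), or 4.59-fold and 4.77-fold. The genotype difference was -0.21 ± 0.12 in the colon (edgeR adjusted p = 0.545) and -0.13 ± 0.23 in the ileum (edgeR adjusted p = 0.877), with 95% intervals from -0.52 to 0.10 and from -0.63 to 0.37. 4930581F22Rik, on the opposite strand, overlaps St3gal4 and shares 9.81% of its 50-base words, but took 144 to 316 counts per library against 7364 to 45057 for St3gal4. Whether reads were assigned by strand is not given in the sources used here.

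B3gnt7 (chromosome 1, 86302832 to 86307305, plus strand), which extends poly-N-acetyllactosamine chains, showed the opposite order. The WT ileum had 61.7 and 56.5 CPM and the KO ileum 59.9 and 61.2, whereas the WT colon had 286 and 229 and the KO colon 533 and 222. All colon libraries were above all ileum libraries, and KO colon replicate 1 was 2.40 times replicate 2, the widest gap between replicates of any of the 9 transferases. The difference of the ileum from the colon was -2.12 ± 0.35 on the log2 scale in WT (edgeR adjusted p = 0.00196) and -2.64 ± 0.35 in KO (edgeR adjusted p = 0.000721), which is 4.36-fold and 6.23-fold lower. The size of the KO difference turned on the KO colon libraries, at -1.88 without replicate 1 and -3.14 without replicate 2, and both of these passed. In the colon the genotype difference of 0.42 ± 0.23 did not pass (edgeR adjusted p = 0.535), nor did 0.04 ± 0.13 in the ileum (edgeR adjusted p = 0.949). The colon value turned on single libraries, being -0.21 without KO replicate 1 and 1.05 without KO replicate 2 (edgeR adjusted p = 0.0296), the latter from a fit in which 1 KO colon library was left.

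B3gnt3 (chromosome 8, 71690756 to 71701789, minus strand), which extends the core galactose with N-acetylglucosamine, was nearly level. It stood at 173 and 180 CPM in the WT colon, 217 and 192 in the KO colon, 162 and 161 in the WT ileum and 209 and 149 in the KO ileum. Both KO colon libraries were above both WT colon libraries, while KO ileum replicates lay on either side of WT. The genotype difference of 0.20 ± 0.10 in the colon did not pass (edgeR adjusted p = 0.486, 95% interval -0.05 to 0.45). The ratio of B3gnt7 to B3gnt3 per kilobase was 0.211 to 0.303 in the 4 ileum libraries and 0.856 to 1.81 in the 4 colon libraries, so the tissues did not overlap.

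Of the enzymes that start the chain, Galnt12 (chromosome 4, 47091909 to 47123070, plus strand) had 64.3 and 62.2 CPM in the WT ileum, 67.8 and 79.1 in the KO ileum, 108 and 116 in the WT colon and 94.0 and 123 in the KO colon. All ileum values were below all colon values. The tissue difference on the log2 scale was -0.82 ± 0.14 in WT (edgeR adjusted p = 0.00294) and -0.56 ± 0.15 in KO (edgeR adjusted p = 0.0175). The KO call was lost without KO ileum replicate 1 (-0.47, edgeR adjusted p = 0.0776) or KO colon replicate 2 (-0.36, edgeR adjusted p = 0.0958). Both KO ileum libraries were above both WT ileum libraries, a difference of 0.21 ± 0.14 that did not pass (edgeR adjusted p = 0.586) and that was 0.12 without KO ileum replicate 2.

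Galnt3 (chromosome 2, 66082766 to 66124994, minus strand), another GalNAc transferase, hardly varied. It stood at 66.3 and 74.7 CPM in the WT ileum, 73.6 and 76.8 in the KO ileum, 79.6 and 85.3 in the WT colon and 63.4 and 75.0 in the KO colon. Both KO colon libraries were below both WT colon libraries, and the difference of -0.27 ± 0.09 on the log2 scale was the only one of a transferase in the colon with an unadjusted p under 0.05, yet the edgeR adjusted p was 0.385. In the ileum it was 0.10 ± 0.13 (edgeR adjusted p = 0.839). Per kilobase, Galnt12 was 1.59 to 1.97 times Galnt3 in the ileum libraries and 2.59 to 3.14 times in the colon libraries.

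C1galt1 (chromosome 6, 7844842 to 7875687, plus strand) adds the galactose on which most mucin-type chains are built. It stood at 238 and 255 CPM in the WT ileum, 202 and 225 in the KO ileum, 335 and 326 in the WT colon and 271 and 339 in the KO colon. The ileum libraries lay below the colon libraries throughout, with a difference of -0.42 ± 0.14 on the log2 scale in WT (edgeR adjusted p = 0.0437) and -0.51 ± 0.14 in KO (edgeR adjusted p = 0.0211). In WT the call was lost when any of the 4 WT libraries was left out (edgeR adjusted p = 0.122 to 0.198), and in KO without KO ileum replicate 1 (edgeR adjusted p = 0.0727) or KO colon replicate 2 (edgeR adjusted p = 0.116). Both KO ileum libraries were below both WT ileum libraries, a difference of -0.20 ± 0.14 that did not pass (edgeR adjusted p = 0.625).

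Gcnt3 (chromosome 9, 70031496 to 70038088, minus strand), a branching enzyme typical of mucin-secreting epithelia, had the largest genotype difference of the 9 in the ileum. It stood at 162 and 149 CPM in the WT ileum and at 286 and 194 in the KO ileum, with no overlap. The difference of 0.60 ± 0.15 on the log2 scale, or 1.52-fold, met the criterion of the study. It was the 1 of 9 transferases to do so, against 3.87% of all genes tested in that direction, and its edgeR adjusted p was 0.124. Without KO ileum replicate 1 it was 0.31, without KO ileum replicate 2 it was 0.89 (edgeR adjusted p = 0.235), and no alternative brought the adjusted p under 0.05 (0.123 to 0.874). In the colon, WT had 233 and 231 CPM and KO 185 and 344, so that WT lay between the KO replicates (0.11 ± 0.22, edgeR adjusted p = 0.862). The ratio of Gcnt3 to C1galt1 per kilobase was 0.967 and 0.825 in the WT ileum against 2.00 and 1.22 in the KO ileum.

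B4galnt2 (chromosome 11, 95865943 to 95914891, minus strand), which adds N-acetylgalactosamine to sialylated galactose to make the Sda epitope, was the most abundant transferase per kilobase in the colon. It had 408 and 409 CPM in the WT ileum, 542 and 475 in the KO ileum, 346 and 356 in the WT colon and 262 and 446 in the KO colon. Both KO ileum libraries were above WT, by 0.32 ± 0.17 on the log2 scale (edgeR adjusted p = 0.509), and the KO colon replicates lay on either side of WT. The difference between tissues was 0.22 ± 0.22 in WT (edgeR adjusted p = 0.492) and 0.52 ± 0.22 in KO (edgeR adjusted p = 0.103). The KO difference passed with DESeq2 (DESeq2 adjusted p = 0.0396), with no filter on low counts (edgeR adjusted p = 0.0432) and without KO colon replicate 2 (0.95, edgeR adjusted p = 0.00393), and it was 0.18 without KO colon replicate 1 (edgeR adjusted p = 0.448).

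Fut2 (chromosome 7, 45648591 to 45666394, minus strand), the secretor fucosyltransferase of the gut epithelium, stood at 98.1 and 102 CPM in the WT ileum and 176 and 95.1 in the KO ileum. KO ileum replicate 1 alone was high, 1.85 times replicate 2, and the genotype difference of 0.38 ± 0.20 on the log2 scale did not pass (edgeR adjusted p = 0.488). It was -0.08 without KO ileum replicate 1 and 0.83 without KO ileum replicate 2. The colon held 157 and 170 CPM in WT and 152 and 171 in KO, a difference of -0.03 ± 0.08 with a 95% interval from -0.23 to 0.17. The WT ileum was below the WT colon in both libraries, and the difference of -0.71 ± 0.24 was just short of the threshold (edgeR adjusted p = 0.0515). It passed with the mouse as a block (edgeR adjusted p = 0.0449), with DESeq2 (DESeq2 adjusted p = 0.0182) and with no filter (edgeR adjusted p = 1.79e-05). With no filter the SE of Fut2 was 0.156, close to the 0.155 of Galnt3, Galnt12 and B3gnt3, so that p rests little on its own spread. With any 1 WT library left out the adjusted p was 0.13 to 0.201. In KO the tissues overlapped, and the difference was -0.25 ± 0.24 (edgeR adjusted p = 0.453), -0.77 without KO ileum replicate 1 (edgeR adjusted p = 0.00407) and 0.15 without KO ileum replicate 2.

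St6galnac1 (chromosome 11, 116765025 to 116775507, minus strand), which places sialic acid on the first GalNAc and so ends the chain, was at or near 0. It had 1 and 2 counts in the WT ileum, 0 and 2 in the KO ileum, 1 and 0 in the WT colon and 2 and 0 in the KO colon, and no fold is given. All of these lie under 3 counts, the limit that a count of 0 allows, so that no difference was detectable at this depth. Gm11735, an unprocessed pseudogene that shares 34.9% of St6galnac1's 50-base words, took 1 to 11 counts in the ileum libraries and 35 to 58 in the colon libraries, and because of the shared sequence the level of St6galnac1 is uncertain.

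Considered as a group, the 9 transferases were close to the other genes in both genotype comparisons. Their median log2 difference was -0.049 in the colon and 0.13 in the ileum, against -4e-04 and -0.0046 over all genes tested. In the colon, 3 of 9 had KO and WT libraries that did not overlap (B3gnt3 higher, Galnt3 and St3gal4 lower), against 44.6% of all genes. In the ileum there were 4 of 9 (B4galnt2, Galnt12 and Gcnt3 higher, C1galt1 lower), against 39.5% of all genes. Between tissues the medians were -0.424 in WT and -0.191 in KO, against -0.0181 and -0.0366 over all genes. The tissues did not overlap for 9 of 9 in WT and 5 of 9 in KO, against 72.8% and 66.6% of all genes.

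**Figure D2:**
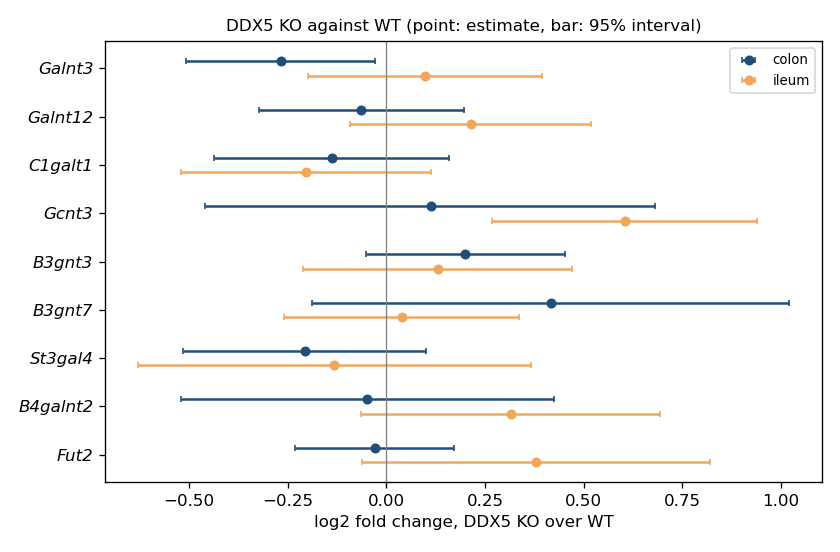
Log2 fold change of KO over WT (horizontal axis) for the 9 transferases tested, in the colon and the ileum; points are edgeR estimates and bars 95% intervals. In the ileum the interval of Gcnt3, from 0.27 to 0.94, is above 0, and in the colon that of Galnt3, from -0.51 to -0.03, is below 0, but neither gene passed the adjustment over all genes.

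**Figure D3:**
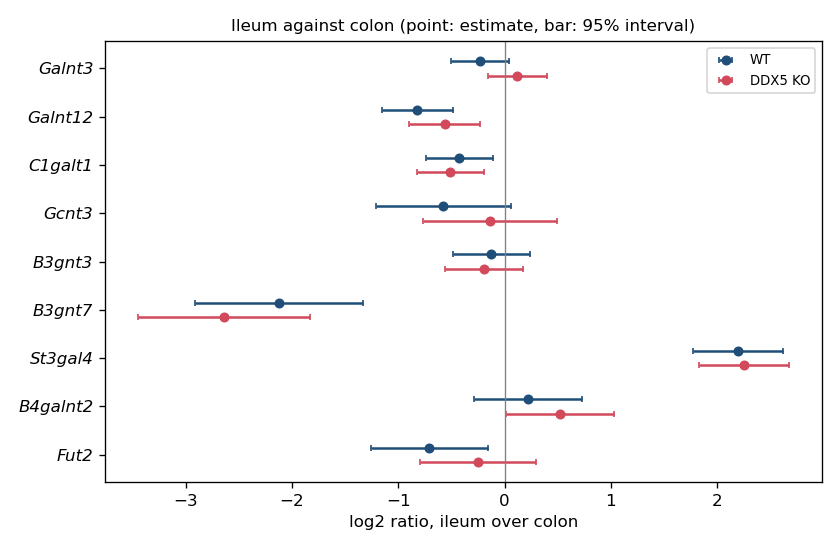
Log2 ratio of ileum over colon (horizontal axis) for the 9 transferases, in WT and in KO; points are edgeR estimates and bars 95% intervals. St3gal4 lies at 2.20 and 2.25 and B3gnt7 at -2.12 and -2.64, while the other 7 lie between -0.82 and 0.52.

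The test of whether the genotype difference itself differed between ileum and colon called none of the 9 transferases (edgeR adjusted p = 1 for each), against 0.0124% of all genes. The interaction estimates on the log2 scale ran from -0.52 ± 0.47 for B3gnt7 to 0.46 ± 0.34 for Fut2. With 2 libraries per group an exact permutation test of a single gene could not go below p = 0.333.

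The replicates of the KO groups lay further apart than those of WT. In the WT colon and WT ileum no transferase differed over 1.5-fold between replicates, where 6.29% and 9.68% of all genes did. In the KO colon 3 of 9 did (B3gnt7 2.40 times, Gcnt3 1.85 times and B4galnt2 1.70 times), where 12.8% of all genes did, and in the KO ileum it was Fut2 alone, where 15.2% of all genes did. B3gnt7 was higher in KO colon replicate 1, and Gcnt3 and B4galnt2 in replicate 2.

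Per kilobase, levels could be compared between the transferases. In the WT ileum St3gal4 led with 671 ± 57.4 CPM per kilobase (SD, n = 2), followed by B4galnt2 with 237 ± 0.689, B3gnt3 with 53.0 ± 0.205 and C1galt1 with 40.5 ± 1.98. The lowest of the 9 was B3gnt7 with 14.3 ± 0.893, and no neighbours in this order overlapped. In the WT colon B4galnt2 led with 204 ± 4.03, then St3gal4 with 146 ± 4.12, B3gnt7 with 62.3 ± 9.64 and B3gnt3 with 57.7 ± 1.74. There the replicates of B3gnt7 and B3gnt3 overlapped, as did those of C1galt1 and Gcnt3, so that their order is not resolved. Galnt3 was the lowest with 18.9 ± 0.925. In KO, B4galnt2 and St3gal4 kept the first places of their tissues, but in the KO colon the replicates overlapped between each pair of neighbours from St3gal4 down to Galnt12.

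The make-up of the whole set changed accordingly. St3gal4 took 62.2% and 59.2% of the counts on the 10 genes in the WT ileum and 54.7% and 54.5% in the KO ileum, against 19.6% and 20.5% in the WT colon and 18.9% and 14.9% in the KO colon. Its 95% Wilson interval in WT ileum replicate 1 was 61.9% to 62.6%, which covers counting error only. The ratio of St3gal4 to B3gnt7 per kilobase was 37.5 to 47.7 in the ileum libraries and 1.10 to 2.69 in the colon libraries. The ratio of B4galnt2 to St3gal4 was 0.333 and 0.377 in the WT ileum and 0.471 and 0.496 in the KO ileum, where the genotypes did not overlap, and 1.07 to 2.25 in the colon. Neither gene passed a test between genotypes, and 39.5% of all single genes tested in the ileum did not overlap either. The ratio itself was not tested.

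**Figure D4:**
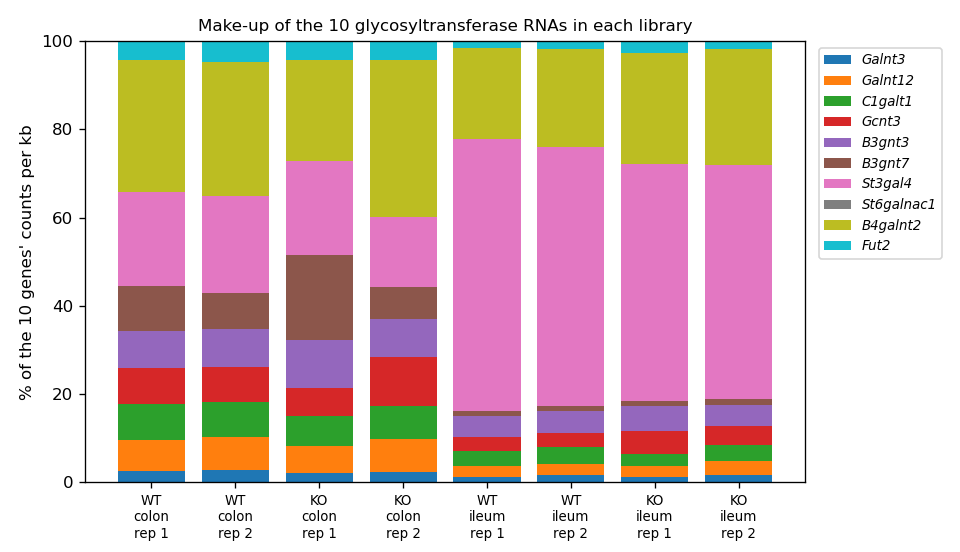
Share of each transferase in the summed counts per kilobase of all 10 genes (vertical axis, percent), 1 stacked bar per library. St3gal4 fills most of each ileum bar (61.6% in WT ileum replicate 1), while colon bars are divided more evenly, and St6galnac1 is too low to be seen.

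Marker genes of cell types also differed between these groups, and none of the listed markers was at 0 in every library. The 10 goblet cell markers summed to 24620 to 34300 CPM in the ileum, 47660 and 53110 in the WT colon and 28060 and 41990 in the KO colon. The markers did not move together. In the colon Clca1 had 15000 and 15550 CPM in WT and 4118 and 6508 in KO. Muc2 had 10680 and 13810 in WT, between the KO values of 8832 and 19240. Between genotypes in the colon none of the 10 passed the adjustment. By the criterion of the study 3 were lower, against 3.67% of all genes, and 0 higher. The 7 Paneth cell markers summed to 10950 to 16790 CPM in the ileum, 1392 and 1577 in the WT colon and 218 and 427 in the KO colon. Most of the colon sum was Ang4 alone, at 1312 and 1502 CPM in WT and 200 and 387 in KO. Lyz1, Defa17, Defa24, Defa30 and Mmp7 were each at 2.10 CPM or less in every colon library, too low to compare. The summed level of 7 tuft cell markers was below WT in both KO libraries of each tissue, at 337 and 508 CPM in the WT ileum against 221 and 278 in the KO ileum, and 70.1 and 76.8 in the WT colon against 25.1 and 51.7 in the KO colon. Of 6 tuft markers tested, 2 were lower at an adjusted p under 0.05 in the ileum and none in the colon, against 0.32% and 0% of all genes. In each tissue 5 were lower by the criterion of the study, against 3.48% of all genes in the ileum and 3.67% in the colon. The 7 enteroendocrine markers summed to 79.4 and 76.0 CPM in the WT ileum against 130 and 103 in the KO ileum, and to 139 to 190 in the colon. In the KO ileum 1 was higher at an adjusted p under 0.05 and 4 by the criterion of the study, against 0.377% and 3.87% of all genes. The 8 ileal enterocyte markers summed to 7070 to 12570 CPM in the ileum and 179 to 379 in the colon. The 5 colonocyte markers summed to 595 to 709 in the ileum, 3353 and 3637 in the WT colon and 4073 and 4634 in the KO colon. Car4 was most of their ileum sum, at 445 to 542 CPM, above the WT colon (245 and 237). Between tissues in WT, 4 of the 5 were called lower in the ileum and 1 higher. In the KO colon Car1 had 1702 and 2962 CPM, on either side of WT (2033 and 2422). By the criterion of the study 3 of the 5 were higher in the KO colon, against 3.04% of all genes, and none passed the adjustment. The 9 leukocyte markers summed to 273 to 1006 CPM in the ileum, 110 in both WT colon libraries and 14.2 and 30.4 in the KO colon. Cd74 was the largest part of each sum, at 218 to 945 CPM in the ileum, 78.5 and 84.8 in the WT colon and 6.73 and 14.7 in the KO colon. The sums therefore follow mostly this 1 gene and are no measure of leukocyte number. Ptprc had 42.0 to 67.8 CPM in the ileum, 22.2 and 19.9 in the WT colon and 5.41 and 10.9 in the KO colon. Of 7 tested in the colon none passed between genotypes, and 3 were lower by the criterion of the study, against 3.67% of all genes. Jchain went the other way in the colon, with 0.420 and 0.132 CPM in WT and 0.552 and 1.09 in KO. The part of all these cell type markers in the results for the transferases was not tested. In bulk RNA, fewer cells of a type and less RNA per cell cannot be told apart.

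The rest of the pathway was followed through 91 further genes in 8 role groups. Of the 68 tested between tissues in WT, 12 were higher and 37 lower in the ileum, against 17.4% and 16.8% of all genes, and the median was -0.651 on the log2 scale. In KO, 11 were higher and 36 lower. Sialyltransferases leaned furthest, with 1 of 8 higher and 6 lower in WT and a median of -2.02, opposite to St3gal4. St6galnac6, a ganglioside sialyltransferase, had 232 and 244 counts in the WT ileum against 9828 and 12445 in the WT colon (log2 ratio -5.28 ± 0.24, edgeR adjusted p = 3.77e-06). St6gal1, which sialylates N-glycans, had 44 and 19 against 1210 and 1256.

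Genes of chain extension split, with 3 of 11 higher and 6 lower in the WT ileum. B3galt5, a galactosyltransferase of type-one chains, was lower, with a log2 ratio of -6.88 ± 0.46 (edgeR adjusted p = 1.94e-05), while B4galt6, a lactosylceramide synthase, was higher by 2.29 ± 0.13 (edgeR adjusted p = 7.33e-06). Among core and branching enzymes 2 of 5 were higher and 1 lower. Gcnt4 stood at a log2 ratio of 3.82 ± 0.46 and Gcnt2, the I-branching enzyme, at 1.88 ± 0.22, against -2.36 ± 0.32 for B3gnt6, the core enzyme typical of colonic mucin. Of the other GalNAc transferases, 3 of 12 were higher, with Galnt1 at 1.20 ± 0.13, and 7 lower.

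Among the fucosyl and blood group transferases, 1 of 10 was higher and 5 were lower in the WT ileum. Abo, the blood group transferase, had 2 and 0 counts in the WT ileum against 227 and 281 in the WT colon, and Fut9, a Lewis-type fucosyltransferase, had 7 and 1 against 464 and 526. Sulfotransferases gave 1 of 3 higher, Gal3st2 at 1.84 ± 0.39, and 2 lower, including Chst4 at -1.88 ± 0.22. The genes of nucleotide sugar supply had none of 13 higher and 8 lower in WT, among them Slc35a1, the CMP-sialic acid transporter, at -2.23 ± 0.13 and Nans, a sialic acid synthase, at -2.05 ± 0.18. Of 6 mucins tested, Muc3 was higher at 0.78 ± 0.17, and Muc4 (-0.72 ± 0.18) and Muc1, with 2 and 1 counts against 103 and 93, were lower. Muc3 has the related gene Muc3a. How much sequence the 2 genes share was not measured here, so whether it bears on the value of Muc3 is not known.

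**Figure D5:**
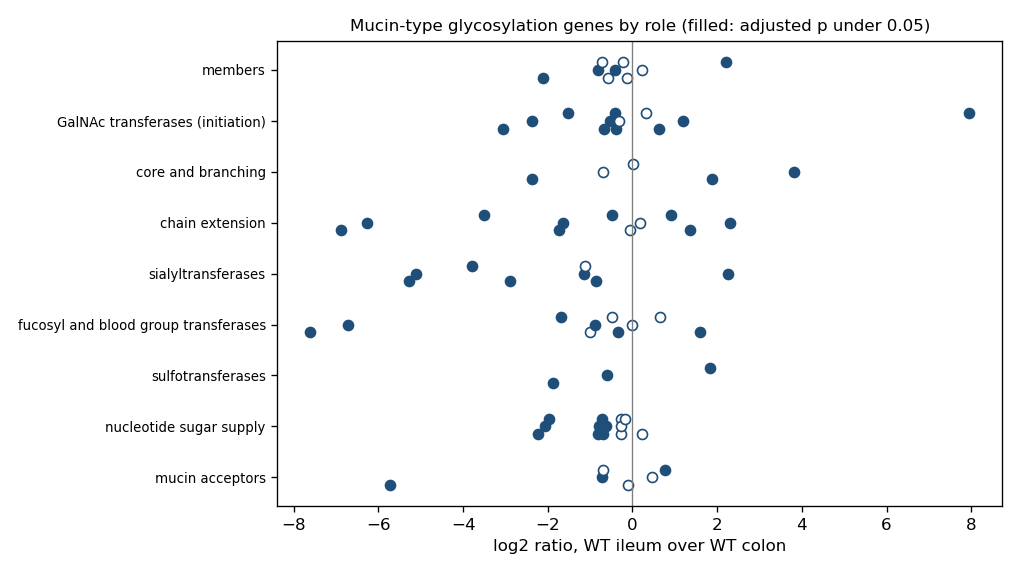
Log2 ratio of WT ileum over WT colon (horizontal axis) for the 9 transferases tested, labelled members, and the other pathway genes by role; each point is 1 gene, filled where the edgeR adjusted p was under 0.05. Sialyltransferases and nucleotide sugar genes lie mostly left of 0 (6 of 8 and 8 of 13 lower), and St3gal4 stands at the right of the top row; points of genes with almost no counts in 1 tissue, such as Abo, carry no reliable fold.

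Between genotypes, 1 of the 61 pathway genes tested in the ileum passed and none of the 65 in the colon, against 0.697% and 0% of all genes. St3gal1, which sialylates the core galactose of O-glycans, had 8.72 and 5.62 CPM in the WT ileum and 21.8 and 11.8 in the KO ileum, so that both KO libraries were above both WT libraries. The difference was 1.22 ± 0.18 on the log2 scale (edgeR adjusted p = 0.0191). It also passed with RLE size factors (1.22, edgeR adjusted p = 0.0218) and with no filter on low counts (1.18, edgeR adjusted p = 1.11e-06). With no filter neither the difference was larger nor the SE smaller (0.19), so this low p is no added evidence for St3gal1. The difference was 1.21 to 1.22 without the replicate block, with DESeq2, with all 8 libraries in one fit or without the 3 repeat-like genes. The adjusted p under these was 0.527, 0.0908, 0.446 and 0.0517, so that the call was lost. Leaving out any 1 ileum library also lost it (edgeR adjusted p = 0.251 to 0.875), with a difference from 0.69 without KO replicate 1 to 1.60 without KO replicate 2. At the study's criterion the ileum gave 4 higher and 3 lower genes, against 3.87% and 3.48% of all genes. Galnt2 had 11 and 17 counts in the WT ileum and 27 and 16 in the KO ileum, and B3gnt5 had a log2 difference of -0.61 ± 0.23 (edgeR adjusted p = 0.309). In the colon 5 were higher and none lower, against 3.04% and 3.67% of all genes, and none of them passed the adjustment: Fut9 at 0.88 ± 0.21, B3galt2 at 0.89 ± 0.27, Gcnt2 at 0.61 ± 0.16, Muc3 at 0.57 ± 0.11 and B4galnt3 at 0.54 ± 0.16.

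Genes with the most similar pattern were sought among 13100 protein-coding genes, by the root mean square difference of log2 CPM centred on each gene's mean over the 8 libraries, a description in which all points share the same libraries. The nearest to C1galt1 was Galnt4, another GalNAc transferase, at 0.056 on the log2 scale. St3gal4 lay nearest to Myo7a (0.089), Galnt12 to Tln2 (0.065), Galnt3 to Zbtb20 (0.059) and B3gnt3 to Nedd8 (0.058). Fut2 lay nearest to Tcim (0.083), with Fpgt, a gene of fucose salvage, in the third place (0.143). B4galnt2 lay nearest to Nyap1 (0.106) and Gcnt3 to Rdh5 (0.137). B3gnt7 had no neighbour as close, its nearest being Sun2 at 0.18.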

How the data were processed

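RNAseq of ileal and colonic IECs from 2 WT and 2 KO mice (8 libraries) was analysed. The authors aligned ribosome-depleted, stranded, 100-bp paired-end reads to mm10 with STAR 2.6.1a and counted them over exons with featureCounts, and the deposited values used here are these raw counts per gene, in 1 table per tissue. The authors' normalized values and their own DESeq2 1.18.1 fold changes and p-values stand in the same tables and were not used. No per-sample count column was left out. Groups and replicate numbers were taken from the sample titles.

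Counts were fitted in R 4.3.3 with edgeR 4.0.16 (filterByExpr with a minimum count of 10, TMM, quasi-likelihood test, Benjamini-Hochberg over all genes tested). Within each tissue, genotype was tested with the replicate number as a block, after the study's harvest covariate and its pairs of cohoused littermates. Tissues and the interaction were compared in 1 fit of 4 groups over 8 libraries without a block, and a gene listed in 1 table counted as 0 in the other. Python 3.11.15 was used for descriptions. The alternatives were no block, the mouse as a block, DESeq2 1.42.0, RLE size factors, no filter, all 8 libraries in one fit, removal of the 3 repeat-like genes, and each library left out in turn. Fits were also run on simulated counts with the same spread for every gene and no effect of pair or mouse. Such counts check the working of the fits and not how far these data meet their assumptions. Total counts ranged from 11571061 to 22984283 per library, and intervals on shares cover counting error only.

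All 10 transferases and Ddx5 were named, and of 91 other pathway genes at most 2 per role and direction were named by the size of their log2 fold change, out of those past the adjusted threshold or, where a genotype comparison had none, the study's criterion. Counts stand in place of a fold where a group was near 0. The members, gene lists and tests were chosen with earlier results of these data known. Positions are from GENCODE for GRCm38 and promoters from RefSeq for GRCm38.p6. P-values rest on the spread between libraries from these few mice, as each fit estimated it. The main tissue and interaction fits had no block for the mouse. They treated the ileum and colon libraries taken to come from the same mouse as independent.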

Additional observations from a re-analysis of the deposited data

How the results depend on the processing

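No replicate block, DESeq2, RLE, no filter, all 8 libraries in one fit and removal of the repeat-like genes each left the count of transferases called at 0 in both genotype comparisons. With single libraries left out the colon count was 0 to 1, the 1 being B3gnt7 without KO replicate 2, and the ileum count and the interaction count were 0 throughout. Between tissues, 4 to 6 were called in WT and 4 to 5 in KO under the alternatives that kept all libraries. Over all genes these alternatives called 5023 to 6106 in WT and 5186 to 6259 in KO. They tested 16178 genes, or 16283 without the repeat-like genes and 40178 with no filter. With single libraries left out some calls were lost, as given above for C1galt1 and Galnt12. The replicate block mattered for all genes, though: without it 5 genes were called in the colon against 0, and 1 in the ileum against 98. DESeq2 with the block called 117 and 39, all 8 libraries in one fit 10 and 7, no filter 423 in the ileum, and removal of the repeat-like genes 20 in the ileum. Leaving out single libraries gave 0 to 193 colonic calls, the 193 without KO colon replicate 2, and 0 to 1 ileal calls. WT and KO libraries with the same number deviated together with a correlation of 0.006 (colon) and 0.24 (ileum). Between the colon and ileum libraries with the same number it was 0.14 in WT and 0.142 in KO. What caused the shifts in these counts was not tested.

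Signs turned only for differences that had not passed. B4galnt2 in the colon was 0.001 without the replicate block and 0.011 with all 8 libraries in one fit, and B3gnt7 in the ileum was -0.001 with no filter. With single libraries left out, the log2 genotype difference in the colon ran from -0.109 to 0.063 for Fut2, -0.42 to 0.34 for B4galnt2, -0.25 to 0.14 for Galnt12, -0.21 to 1.05 for B3gnt7, -0.29 to 0.033 for C1galt1, -0.33 to 0.56 for Gcnt3 and -1.28 to 0.34 for St3gal1. In the ileum it ran from -0.083 to 0.83 for Fut2, -0.28 to 0.013 for St3gal4, -0.13 to 0.39 for B3gnt3 and -0.026 to 0.10 for B3gnt7. The tissue difference in KO ran from -0.77 to 0.15 for Fut2, -0.005 to 0.24 for Galnt3, -0.46 to 0.055 for B3gnt3, -0.52 to 0.37 for Gcnt3 and -0.26 to 1.37 for St3gal1. The interaction ran from -0.062 to 0.87 for Fut2, -0.029 to 0.74 for B4galnt2, -0.088 to 0.22 for St3gal4, -0.34 to 0.19 for B3gnt3, -1.01 to 0.25 for B3gnt7 and -0.24 to 0.086 for C1galt1. A group left with 1 library is assumed to vary like the others. With 2 mice per group, and St6galnac1 at 0 to 2 counts, differences smaller than the intervals given were not resolved.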
